A study of Mus musculus with 15 samples.

Results

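The genes described here are 10 components of the circadian clock, found by matching the Ensembl identifiers of the gene table to the symbols Arntl, Clock, Npas2, Per1, Per2, Per3, Cry1, Nr1d1, Dbp and Tef in the GRCm38 annotation. All 10 were found among the 54532 genes of the table, and all 10 passed the filter on low values in every comparison. Values came from RNA sequencing of 15 kidneys of male C57BL/6 mice, 5 per group, which were 8 weeks old on arrival and were killed at the end of an 8-week experiment. The control group (C) ate normal diet. The CKD model group (M) ate chow with 0.25% adenine for 4 weeks, which injures the tubules, and then standard diet. The AA group had the same adenine feeding and received 30 mg/kg asiatic acid, a plant triterpenoid, by gavage each day throughout. C and M mice were gavaged with the vehicle, 1% DMSO in saline. All mice lived in a 12-hour light and dark cycle, and the hour at which each mouse was killed is not given in the sources used here, so that hour and group cannot be told apart.

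The clock of mammalian cells is a loop of transcription and repression that takes about a day. Arntl, also called Bmal1, pairs with Clock or its relative Npas2, and the pair binds E-boxes to drive the Per and Cry genes, whose proteins then repress the pair. The same pair drives Nr1d1, which encodes the receptor REV-ERB alpha that represses Arntl, and Dbp and Tef, PAR bZIP factors that act through D-boxes on output genes. In the kidney the clock is known for daily rhythms in sodium and water transport. In tissues sampled over a day the Dbp, Nr1d1 and Per transcripts peak when Arntl and Npas2 are low, and Cry1 follows with a delay. Per1, Per2, Per3, Nr1d1, Dbp and Tef are called the output genes below, Arntl, Clock and Npas2 the positive arm, and Cry1 is given apart.

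The promoters show which of these elements the members carry close to their start. RefSeq windows of 300 bases on GRCm38.p6, from 250 before to 50 after a start, were given for 9 of the 10 genes, and 6 of them held a match to a searched motif. The motifs were the E-box CACGTG, the E-prime box CACGTT, the D-box TTATGTAA and its variant TTACGTAA, the RORE core TAGGTCA and the CRE TGACGTCA, on either strand. The E-box was in 7.15% of all 32851 windows, the E-prime box in 4.68%, the D-box in 0.938%, the D-box variant in 0.119%, the RORE core in 2.61% and the CRE in 1.79%. Clock, Npas2 and Dbp had windows without a match, and Per2 was not among the windows. The matches are shown because the genes that carry them are the ones compared below. Capitals mark the match, and each sequence is read 5′ to 3′ on the strand of its gene.
Per1, E-box, chr11:69098743-69098828, plus strand: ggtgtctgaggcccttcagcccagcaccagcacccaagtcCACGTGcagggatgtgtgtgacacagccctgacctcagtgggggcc
Tef, E-box before one start, chr15:81802506-81802591, plus strand: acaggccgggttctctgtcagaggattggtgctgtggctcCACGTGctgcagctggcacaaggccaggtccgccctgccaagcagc
Tef, E-box before its other start, chr15:81811236-81811321, plus strand: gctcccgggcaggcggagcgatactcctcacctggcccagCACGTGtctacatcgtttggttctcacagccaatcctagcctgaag
Cry1, E-box, chr10:85185069-85185154, minus strand: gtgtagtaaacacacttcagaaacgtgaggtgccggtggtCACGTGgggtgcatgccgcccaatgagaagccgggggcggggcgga
Nr1d1, E-prime box read on the opposite strand, chr11:98775378-98775445, minus strand: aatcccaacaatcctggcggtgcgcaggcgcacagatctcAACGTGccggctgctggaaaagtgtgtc
Per3, D-box, chr4:151044823-151044910, minus strand: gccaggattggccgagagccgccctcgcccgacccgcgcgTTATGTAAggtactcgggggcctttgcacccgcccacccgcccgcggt
Arntl, RORE core, chr7:113207529-113207558, plus strand: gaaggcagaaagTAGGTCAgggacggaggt
Per3 held another D-box between its first and its start, and Cry1 an E-prime box next to its E-box. The match in Arntl begins 30 bases after the start, in the sequence that REV-ERB and ROR receptors are known to compete for. A match is a run of letters, and no binding was measured.

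Values are FPKM, in which the reads on a gene are scaled by its length and by the reads of its library. The libraries differed in depth and in the share of mitochondrial reads, and these differences moved with the groups. Reads recovered from the FPKM steps numbered 13647020 to 28884426 per library, of which mitochondrial genes took 53.0% to 62.5% in C, 64.0% to 86.8% in M and 69.2% to 87.2% in AA. Within the M group 3 libraries stood apart, since M1, M2 and M3 had 10068 to 12222 genes above 0 and M4 and M5 had 23040 and 25460. C libraries had 19864 to 25251 such genes and AA libraries 18695 to 22355. Among the deposited columns M1 to M3 stood first, followed by the AA and then the C kidneys, and M4 and M5 stood last. The sources used here do not explain this order, and its part in the differences was not tested. Of kidney markers, Umod of the thick ascending limb was present in all 15 libraries, at 6.30 to 66.7 FPKM. Slc34a1 of the proximal tubule was lower in M (0.184 to 16.9) and AA (2.62 to 4.59) than in C (71.0 to 905). Member results against or within the M group that this split changed are therefore given also for M4 and M5 alone and for M1 to M3 alone, a split made after the data were seen. The output, glucocorticoid, temperature and cell type lists are given for all 5 M kidneys only.

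Median levels in the C kidneys ran from 11.8 FPKM for Tef, 8.28 for Nr1d1, 5.72 for Per1 and 5.46 for Dbp through 1.77 for Per3, 1.47 for Per2 and 0.988 for Clock to 0.762 for Cry1, 0.349 for Npas2 and 0.322 for Arntl. The range of every gene in this order overlapped that of its neighbour. In the M kidneys Cry1 came next after Tef and Nr1d1, at 2.09, and Per2 last, at 0.340. In the AA kidneys Nr1d1 (3.34), Tef (2.71) and Per3 (1.71) led, and Per2 (0.159) was again last, below Cry1 (0.223), Dbp (0.343) and Per1 (0.397). In all, 9 of the 150 member values were listed at 0, and a floor of 3 reads in those libraries corresponded to 0.0299 to 0.0996 FPKM.

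**Figure D1:**
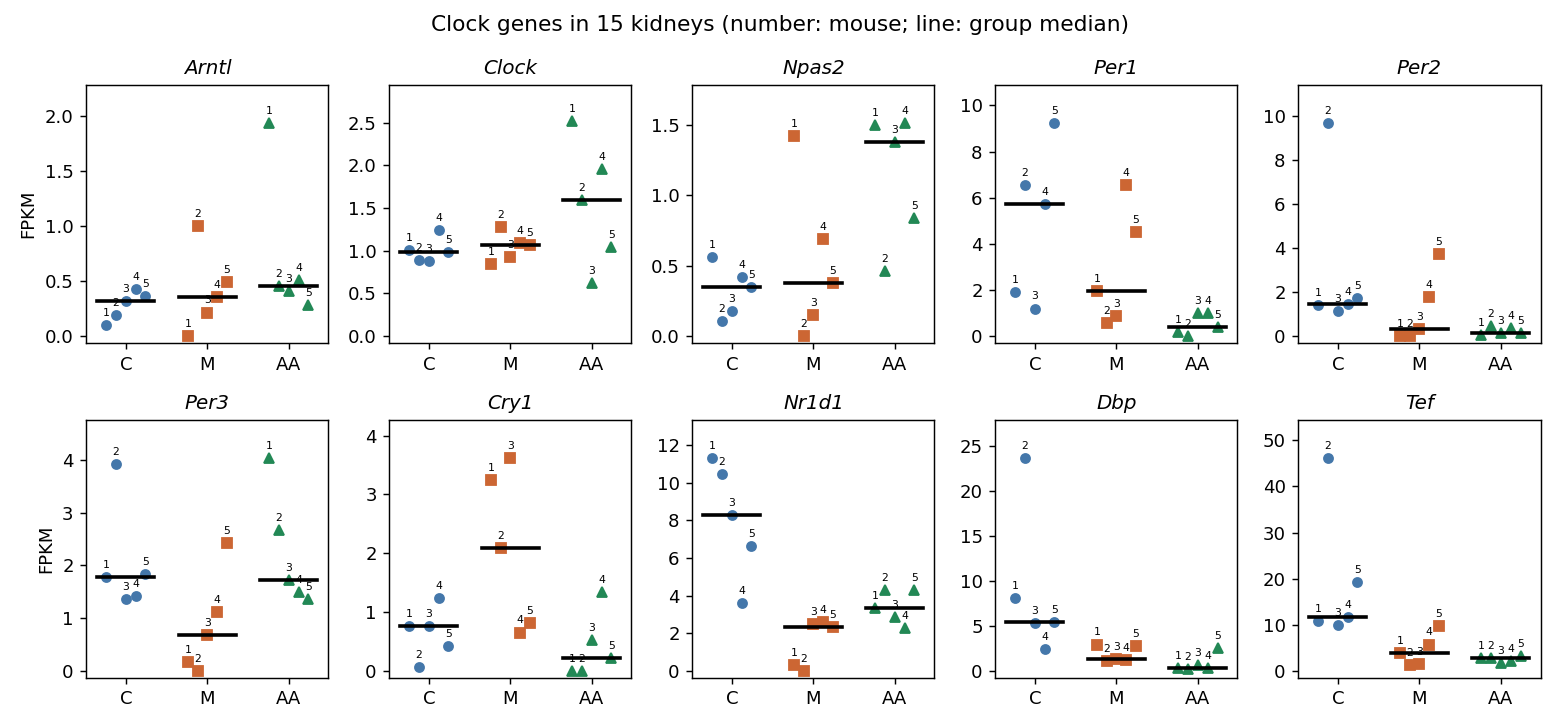
FPKM of each of the 10 clock genes (vertical axes, linear) in the 5 kidneys of the C, M and AA groups (horizontal axes), with points numbered by mouse and a line at the group median. Tef, Per1 and Per2 are lower in all AA kidneys than in any C kidney, and Per1, Per2 and Tef of M4 and M5 lie above those of M1, M2 and M3.

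The first comparison, M vs. C, asked which clock genes differed in adenine-fed kidneys. Lower levels were measured for most output genes, with Nr1d1 the one that passed the test, while the positive arm lay close to C. Members were called where limma gave an adjusted p not above 0.05 and the groups differed by 1 or more on the log2 scale. Of the 10 members 1 was called, lower, against 1.38% of all 21153 genes tested and 1.11% called lower. The groups did not overlap for 2 members, Nr1d1 and Tef, against 4.72% of all genes. The median log2 fold change on the log2(FPKM + 1) scale was -0.72 over the members and -0.12 over all genes.

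Nr1d1, the repressor of Arntl, lies on chromosome 11 from 98767932 to 98775333 on the minus strand. Its level was 11.3, 10.5, 8.28, 3.61 and 6.66 FPKM in C1 to C5 and 0.308, 0, 2.49, 2.63 and 2.31 in M1 to M5. Every M kidney was below every C kidney, and M1 and M2 were far below the other three. The log2 fold change was -1.94 (SE 0.43), with an adjusted p of 0.0462. The call was lost when C1 (adjusted p = 0.0876), C2 (0.116), C3 (0.0801), C5 (0.118), M1 (0.106), M2 (0.0988) or M3 (0.0879) was left out, and with M4 and M5 alone the log2 fold change was -1.31 (adjusted p = 0.219). Exons of Nr1d1 share 263 bases, 8.55% of their length, with Thra on the opposite strand, whose log2 fold change was -0.24 (adjusted p = 0.734), and the sources used here do not say whether reads were counted by strand.

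Tef lies on chromosome 15 from 81802421 to 81826863. It measured 10.8, 46.2, 9.998, 11.8 and 19.3 FPKM in the C kidneys and 3.79, 1.36, 1.57, 5.73 and 9.66 in the M kidneys. The highest M kidney, M5, was just below the lowest C kidney, C3. The log2 fold change of -1.91 (SE 0.50) did not pass, with an adjusted p of 0.0818, and it passed when M5 was left out (adjusted p = 0.0280). It was -1.04 with M4 and M5 alone (adjusted p = 0.533) and -2.50 with M1 to M3 alone (0.00562). Dbp, the other PAR bZIP gene, on chromosome 7 from 45705088 to 45710203, measured 8.11, 23.6, 5.32, 2.47 and 5.46 in C and 2.94, 1.15, 1.30, 1.24 and 2.74 in M. Its groups overlapped only through C4, and the log2 fold change was -1.52 (SE 0.46, adjusted p = 0.125), with -1.46 (0.411) for M4 and M5 and -1.56 (0.0503) for M1 to M3.

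The Per genes, which encode the PERIOD repressors, had wide ranges in M. Per1, on chromosome 11 from 69095217 to 69109960, measured 1.91, 6.57, 1.20, 5.72 and 9.22 FPKM in C and 1.94, 0.578, 0.863, 6.53 and 4.50 in M. Per2, on chromosome 1 from 91415982 to 91459324, measured 1.41, 9.65, 1.14, 1.47 and 1.73 in C, and in M it was listed at 0 in M1 and M2 and measured 0.340, 1.76 and 3.74 in M3 to M5. Per3, on chromosome 4 from 151003652 to 151044665, measured 1.77, 3.92, 1.36, 1.43 and 1.84 in C, and 0.170, 0, 0.674, 1.12 and 2.42 in M. M4 and M5 lay within the C range for Per1 and Per2, and M5 did for Per3. Per1 and Per2 had log2 fold changes of -0.64 and -0.88, and Per3 one of -0.79, with adjusted p-values of 0.565, 0.433 and 0.304.

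Cry1, the cryptochrome repressor on chromosome 10 from 85131700 to 85185064, was the member with the largest positive difference. It measured 0.764, 0.0596, 0.762, 1.24 and 0.421 FPKM in C and 3.25, 2.09, 3.62, 0.653 and 0.815 in M, so that M1 to M3 were above every other kidney of both groups. The log2 fold change of 0.82 (SE 0.36) did not pass (adjusted p = 0.273). In M1 to M5 Arntl was listed at 0 in M1 and then measured 1.00, 0.215, 0.358 and 0.490, Clock measured 0.841, 1.28, 0.923, 1.09 and 1.07, and Npas2 1.42, 0, 0.154, 0.690 and 0.381, each overlapping its values in C. The positive arm differed by little: Arntl by 0.11, Clock by 0.03 and Npas2 by 0.15 on the log2 scale, with adjusted p-values of 0.780, 0.955 and 0.760, and the sign of each turned under other settings. The 95% interval of the difference was -0.46 to 0.52 for Clock, -0.29 to 0.50 for Arntl and -0.35 to 0.65 for Npas2.

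The M kidneys fell apart in some of these genes, as they did over the whole table. The ranges of M1 to M3 and of M4 and M5 did not overlap for 5 of the 10 members, and for 55.6% of the 21153 genes tested in M vs. C, so that the members did not stand out by this count. Per1 was 0.578 to 1.94 against 4.50 to 6.53 FPKM, Per2 0 to 0.340 against 1.76 to 3.74, Per3 0 to 0.674 against 1.12 to 2.42 and Tef 1.36 to 3.79 against 5.73 to 9.66, all higher in M4 and M5. Cry1 went the other way, with 2.09 to 3.62 in M1 to M3 against 0.653 to 0.815. With M1 to M3 alone Per2, Per3, Cry1, Tef and Nr1d1 were called against C, beside 19.9% of all genes tested. With M4 and M5 alone limma called 0 members and 0 of 20868 genes, with 2 members and 2489 genes at an unadjusted p under 0.05. M1 to M3 were also the libraries with the fewest genes above 0 and mitochondrial shares of 84.8% to 86.8%, and the part of these in the differences was not tested.

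**Figure D2:**
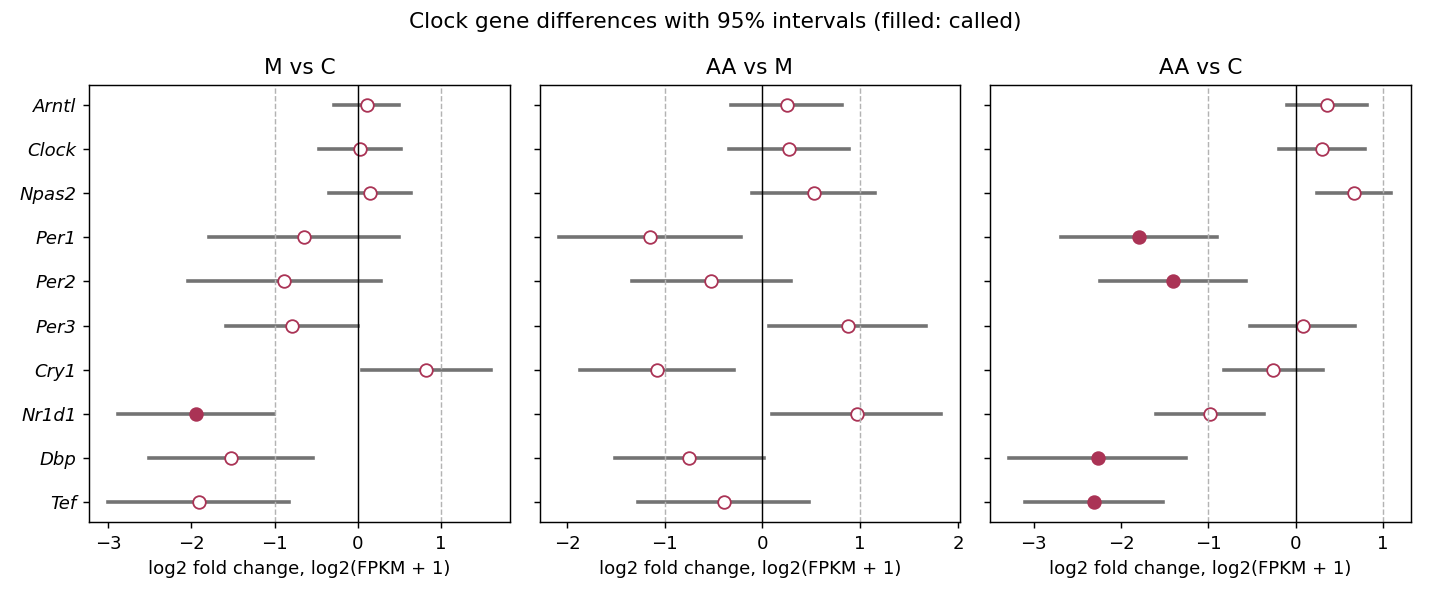
Log2 fold changes of the 10 clock genes on the log2(FPKM + 1) scale (horizontal axes) with 95% intervals in the 3 comparisons, where filled points are called and dashed lines mark 1 in either direction. Nr1d1 is called in M vs. C, no gene in AA vs. M, and Per1, Per2, Dbp and Tef in AA vs. C.

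The second comparison, AA vs. M, asked which clock genes differed in adenine-fed kidneys that received asiatic acid. None of the 10 members was called with limma, against 12.8% of all 19798 genes tested, and limma voom on the recovered reads called 0 too. At an unadjusted p under 0.05 there were 4, Per1 and Cry1 with lower and Per3 and Nr1d1 with higher values in AA, a share near the 32.1% of all genes. No member had groups that did not overlap, against 13.2% of all genes. The median log2 fold change was -0.08 over the members and 0.17 over all genes.

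In the AA kidneys Per1 measured 0.183, 0, 0.994, 1.01 and 0.397 FPKM in AA1 to AA5, so that its range met that of M only in M2 and M3. The log2 fold change was -1.15 (SE 0.44, adjusted p = 0.0827), and it passed without M2 (adjusted p = 0.0455). Cry1 was listed at 0 in AA1 and AA2 and measured 0.519, 1.34 and 0.223 in AA3 to AA5, with a log2 fold change of -1.08 (SE 0.37, adjusted p = 0.0578). It passed without M4 (0.0329), M5 (0.0319) or AA4 (0.0345). AA4, at 1.34, was the only AA kidney above M4 and M5.

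Nr1d1 and Per3 had the opposite sign. Nr1d1 measured 3.34, 4.32, 2.88, 2.26 and 4.30 in AA, with 4 of 5 above the highest M kidney, and its log2 fold change was 0.96 (SE 0.40, adjusted p = 0.113). Per3 measured 4.03, 2.68, 1.71, 1.49 and 1.36, all above M1 to M4, with a log2 fold change of 0.87 (SE 0.37, adjusted p = 0.123) that passed without M5 (adjusted p = 0.0334). Dbp was 0.343, 0.222, 0.623, 0.292 and 2.57 in AA, under every M kidney in 4 of 5, and AA5 overlapped. Its log2 fold change of -0.75 (SE 0.35, adjusted p = 0.163) passed without AA5 (0.0404). For Per2, Tef and the positive arm the log2 fold changes were -0.52 for Per2, -0.40 for Tef, 0.25 for Arntl, 0.27 for Clock and 0.53 for Npas2, with adjusted p-values from 0.238 to 0.561. Those of Arntl and Clock turned negative when values were centred on library medians or quantile normalized.

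The result against M depended on which M kidneys were used. Against M4 and M5 alone, Per1 (log2 fold change -2.14, adjusted p = 0.00860), Per2 (-1.55, 0.0103) and Tef (-1.28, 0.0346) were called lower in AA, beside 8.62% of all genes. Against M1 to M3 alone, Cry1 was called lower (-1.55, 0.00591) and Nr1d1 (1.39, 0.0228) and Per3 (1.32, 0.0132) higher, beside 22.3% of all genes. No member was called against both sets of kidneys.

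The comparison AA vs. C set asiatic acid together with adenine feeding against normal kidneys. Tef, Dbp, Per1 and Per2 fell, Nr1d1 missed only the fold threshold, and none of the positive arm was called. The 4 called members, all lower, stand beside 19.8% of all 21898 genes called and 9.61% called lower. Groups did not overlap for 3 members, Per1, Per2 and Tef, against 24% of all genes, so that this count is close to the background. The median log2 fold change was -0.62 over the members and 0.09 over all genes.

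Tef measured 2.75, 2.71, 1.78, 2.25 and 3.19 FPKM in AA, a narrow range, against 9.998 to 46.2 in C. Its log2 fold change was -2.31 (SE 0.36), with an adjusted p of 0.000976. Dbp fell by 2.27 (SE 0.47, adjusted p = 0.00380), and its groups touched only because AA5, at 2.57, was above C4, at 2.47. Per1 fell by 1.80 (SE 0.41, adjusted p = 0.00622), with the highest AA kidney at 1.01 and the lowest C kidney at 1.20. Per2 measured 0.0752, 0.473, 0.159, 0.357 and 0.148 in AA and fell by 1.40 (SE 0.38, adjusted p = 0.0145). Tef, Dbp and Per1 were called in all 23 alternatives and Per2 in 22 of 23. Without C2, whose 9.65 was far above the other C kidneys, the log2 fold change of Per2 was -0.98 (adjusted p = 0.00291), just under the threshold.

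Reads behind these values were few in AA, with 0 to 117 for Per1, 6 to 43 for Per2, 6 to 124 for Dbp and 192 to 404 for Tef, against 346 to 1737, 265 to 2272, 250 to 2843 and 2725 to 14602 in C. Exons of Dbp share 539 bases, 18.0% of their length, with Sphk2 on the opposite strand. Sphk2, a sphingosine kinase, measured 2.22 to 5.40 FPKM in C and 0 to 1.30 in AA and fell as well (log2 fold change -1.63, adjusted p = 0.00151). Reads of the shared stretch cannot be told apart without strand. Tef overlaps Gm17597 by 193 bases and Arntl overlaps Gm45355 by 33, both antisense genes at or near 0 in these kidneys, with at most 1.52 FPKM for Gm17597 and 0 for Gm45355.

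Nr1d1 was 3.61 to 11.3 FPKM in C and 2.26 to 4.32 in AA, with C4 inside the AA range. Its log2 fold change of -0.98 (SE 0.28) had an adjusted p of 0.0189, and it reached the fold threshold without C4 (-1.20), C5 (-1.02), AA2 (-1.05) or AA5 (-1.05). When mitochondrial genes were left out of the scaling it was -0.10 (adjusted p = 0.851). Over the 23 alternatives it ran from -2.11 to -0.10. Nr1d1 was called lower in 9 of them, 5 of which kept every library, voom included. Per3 did not follow the other Per genes, with 1.36 to 3.92 in C and 1.36 to 4.03 in AA and a log2 fold change of 0.08 (95% interval -0.52 to 0.69, adjusted p = 0.834), a sign that turned as TPM or centred values, with voom and without AA1. Cry1 had a log2 fold change of -0.25 (adjusted p = 0.460).

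In the positive arm Npas2 had the clearest difference. Npas2, on chromosome 1 from 39193731 to 39363236, measured 0.565, 0.109, 0.176, 0.419 and 0.349 FPKM in C and 1.502, 0.463, 1.38, 1.51 and 0.842 in AA, where only AA2 was inside the C range. The log2 fold change of 0.67 (SE 0.20) had an adjusted p of 0.0194 but was under the fold threshold. Clock, on chromosome 5 from 76209868 to 76304792, measured 1.01, 0.886, 0.876, 1.24 and 0.988 in C and 2.52, 1.60, 0.626, 1.96 and 1.05 in AA, with the groups overlapping (0.30, adjusted p = 0.311). Arntl, on chromosome 7 from 113207465 to 113314126, measured 0.103, 0.195, 0.322, 0.432 and 0.361 in C and 1.93, 0.457, 0.407, 0.510 and 0.281 in AA (0.35, adjusted p = 0.203). AA1 was far above the rest for Arntl. With mitochondrial genes left out, the median of all genes moved from 0.09 to 0.77, and Npas2 (1.84), Clock (1.26) and Arntl (1.26) were then called higher, while Tef (-1.57), Dbp (-2.19), Per1 (-1.96) and Per2 (-1.56) were called lower as before. As TPM and with voom the sign of Clock turned negative.

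Phase agreement was read within each library. The mean log2(FPKM + 1) of the 6 output genes minus that of the 3 genes of the positive arm, called the arm difference, was 2.06 ± 0.73 (SD, n = 5) in C, 0.68 ± 0.69 in M and 0.17 ± 0.39 in AA. It was 1.84, 3.28, 1.62, 1.44 and 2.09 in C1 to C5, 0.35, -0.23, 0.60, 1.12 and 1.56 in M1 to M5, and -0.38, 0.35, 0.32, -0.07 and 0.61 in AA1 to AA5. C and AA did not overlap, M5 lay above C4, and M1 to M3 lay in the AA range. The output genes averaged 2.64 ± 0.65 in C, 1.35 ± 0.70 in M and 1.19 ± 0.11 in AA, and the positive arm 0.58 ± 0.11, 0.68 ± 0.11 and 1.02 ± 0.34. The means of M4 and M5 alone and of M1 to M3 alone differed from C by -0.72 and -1.82. No test was run on this score, which is built from the members, and Tef and Dbp weigh more in it than the low genes.

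**Figure D3:**
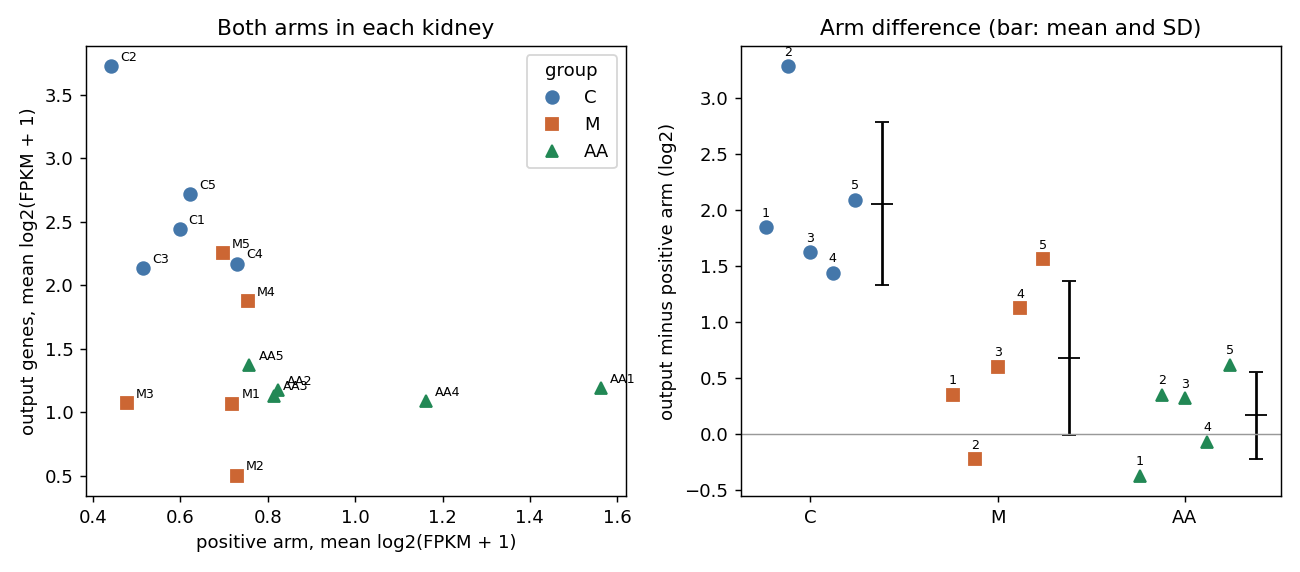
Left, mean log2(FPKM + 1) of the 6 output genes (vertical axis) against that of Arntl, Clock and Npas2 (horizontal axis) in each of the 15 kidneys; right, the difference of these means by group, numbered by mouse, with mean and SD. C kidneys lie at 1.44 to 3.28 and AA kidneys at -0.38 to 0.61, with M kidneys from -0.23 to 1.56.

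Against each gene's median over the 15 kidneys, C2 had the plainest opposition of the arms, with all 6 output genes above and all 3 of the positive arm below. C1 and C5 also had all 6 output genes above, with 2 of the 3 positive genes below. C3 had 4 output genes above and all 3 positive genes below. C4 did not show this opposition, with 4 output genes above and 2 of 3 positive genes above as well. AA1 and AA4 had all 3 positive genes above, with 4 and 5 of the 6 output genes below. AA2 and AA3 had 2 of 3 positive genes above, with 3 and 5 output genes below. AA5 had 1 positive gene above and 1 below, with 2 output genes above and 4 below. In M3, by contrast, all 6 output genes and all 3 positive genes were below, and in M2 all 6 output genes were below with 2 of 3 positive genes above. M5 resembled the C kidneys, with 5 of 6 output genes above, and had 2 of 3 positive genes above as well. Per2, Nr1d1 and Tef were above the median in all 5 C kidneys, Per1, Per2 and Tef in no AA kidney, and Nr1d1 in no M kidney.

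Over the 15 kidneys the FPKM of Arntl and Dbp had a Spearman rho of -0.70, Arntl and Clock one of 0.75 and Dbp and Tef one of 0.78. Arntl and Nr1d1 had -0.38, Arntl and Npas2 0.13 and Dbp and Per3 0.03, so that not every pair went by arm. These are descriptions over kidneys that share groups, depth and mitochondrial share. Of 9036 protein-coding genes with a mean FPKM of at least 1, those most like Arntl were Ramp3, which encodes a receptor activity-modifying protein (rho 0.89), Fosl2, an AP-1 factor (0.87), and Birc5, which encodes survivin (0.84). Among those most like Dbp were Acad8, a mitochondrial acyl-CoA dehydrogenase (0.91), and Farsb, a subunit of the phenylalanine tRNA synthetase (0.90, tied with Gpr180). None of these is a clock gene.

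Beyond the members, 26 other clock genes were listed, among them paralogs, kinases and ubiquitin ligases of the loop. In M vs. C 0 of 26 were called by limma, with 4 at an unadjusted p under 0.05 and 2 called by voom. Over all genes limma gave 16.5% an unadjusted p under 0.05, and voom called 1869 of 21144. The largest differences were those of Usp2, a deubiquitinase that acts on clock proteins (-1.90, adjusted p = 0.137), Ciart, a repressor of the Clock and Arntl pair (-1.43, 0.129), and Tipin, the partner of Timeless (0.98, 0.260). Ciart was listed at 0 in M1 to M3 and measured 0.814 and 1.80 FPKM in M4 and M5 against 1.45 to 8.64 in C. Usp2 was 0 to 1.18 in M1 to M3 and 5.82 and 6.38 in M4 and M5, against 3.39 to 16.1 in C. Tipin was 5.16 to 11.8 in M1 to M3 and 1.86 and 2.25 in M4 and M5, against 1.37 to 2.94 in C.

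In AA vs. M 1 of 26 was called, against 12.8% of all genes tested. Hlf, the remaining PAR bZIP factor, rose in AA vs. M by 1.24 (SE 0.34, adjusted p = 0.0217), from 0 to 1.32 FPKM in M to 2.17 to 6.09 in AA, with no overlap. The call was lost without M2 (adjusted p = 0.0507) or AA2 (0.0511), with M4 and M5 alone (0.102), with the replicate block (0.0605), with library quality weights (0.88 on the log2 scale), with a pseudocount of 0.01, as TPM, with voom, and with quantile normalization or centring, while the sign stayed positive in each. Its level in C was 1.10 to 2.88, and its log2 fold change in AA vs. C was 0.45 (adjusted p = 0.194). Hlf therefore had the opposite sign to Tef and Dbp in AA, against both M and C. The medians over the 26 genes were 0.14 in M vs. C, -0.17 in AA vs. M and 0.03 in AA vs. C.

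**Figure D4:**
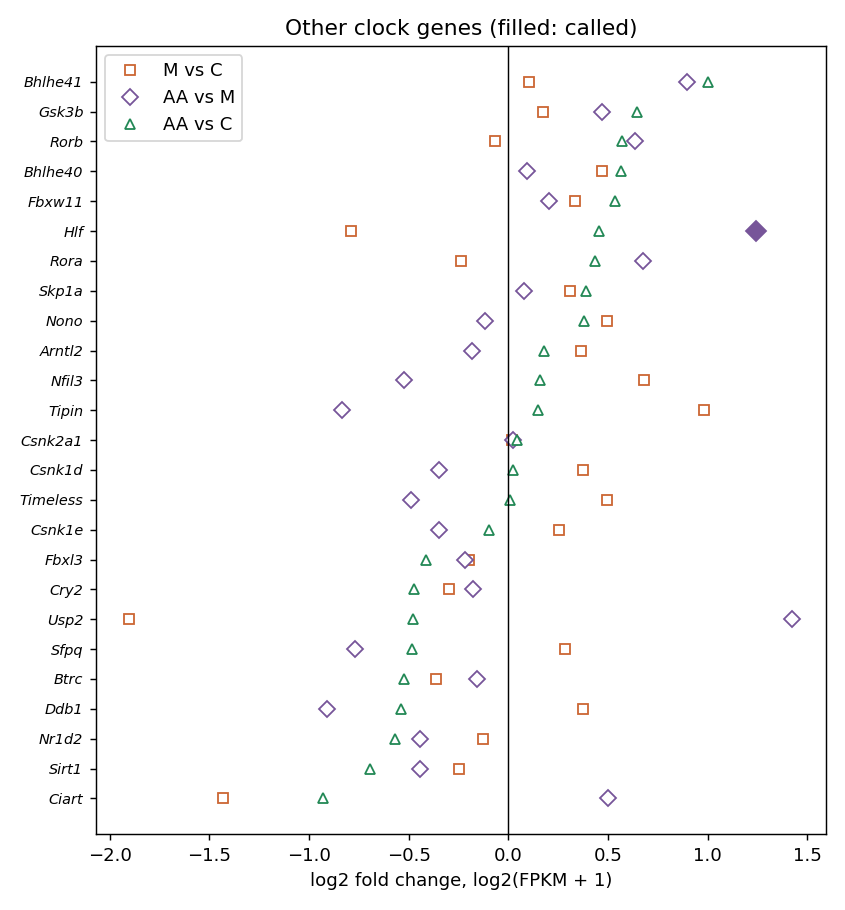
Log2 fold changes of 25 other clock genes on the log2(FPKM + 1) scale (horizontal axis) in M vs. C (squares), AA vs. M (diamonds) and AA vs. C (triangles), sorted by AA vs. C, with called genes filled. Hlf is the filled point, in AA vs. M at 1.24.

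Of 25 listed genes under clock control in the kidney and elsewhere, 24 were tested. In M vs. C 2 were called, Aqp2, the water channel of the collecting duct (-4.15, adjusted p = 0.0293), and Slc9a3, the sodium and proton exchanger (-2.28, 0.0440). Over all genes 1.11% were called lower. Aqp2 was uneven within C, at 255 and 437 FPKM in C1 and C3 and 20.6 to 29.6 in C2, C4 and C5. All M kidneys were below these, at 1.38 to 7.45. In AA vs. M 0 of 24 were called by limma, with 2 at an unadjusted p under 0.05. Over all genes there, 12.8% were called and 32.1% had such a p. Voom called 0 of 24 in AA vs. M and 5 lower in M vs. C, in a fit where the median of all genes was -1.63. In AA vs. C 6 of 24 fell, beside 9.61% of all genes called lower. They were led by Aqp2 (-3.92, 0.00428), Wnk4, a kinase that regulates sodium chloride transport (-3.54, 0.000111), Slc9a3 (-2.68, 0.000446) and Scnn1a, a subunit of the epithelial sodium channel (-1.62, 0.00725). Voom called 12 of 24 lower in AA vs. C, in a fit where the median of all genes was -0.75. The medians of the list on the log2(FPKM + 1) scale were -0.37, -0.02 and -0.30. Aqp2 also stands in the list of distal nephron markers.

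Glucocorticoids and body temperature are known to drive some clock genes, and their responsive genes are given for that reason. Of 10 glucocorticoid-responsive genes 0 were called in M vs. C by limma, with 0 at an unadjusted p under 0.05, and 0 by voom. Klf9, a Kruppel-like factor induced by glucocorticoids, rose in AA against M (1.30, adjusted p = 0.0235) and against C (1.05, 0.0311), and Sgk1, a kinase of sodium transport, fell in AA vs. C (-1.10, 0.0325). Of 9 temperature-responsive genes Hspa8 (-1.25, 0.0105) and Hspa1a (-1.14, 0.0185), both of the HSP70 family, fell in AA vs. C, and 0 were called by limma in the other comparisons, with 1 at an unadjusted p under 0.05 in each. In AA vs. M that gene was Hspa8 (-0.98, adjusted p = 0.0479), which missed only the fold threshold. Voom called 1 of the 9 in M vs. C, 0 when AA was set against M and 6, all lower, when it was set against C. For the glucocorticoid list voom called 0 in AA against M and 3, all lower, in AA against C, without Klf9. Over all genes, voom called 1869 of 21144 in M vs. C and 8590 of 21888 in AA against C, 18.7% of the latter higher. By limma 9.61% of all genes were called lower in AA against C. Median log2 fold changes in the order M vs. C, AA against M and AA against C were 0.01, -0.24 and -0.06 for the glucocorticoid list and -0.26, -0.40 and -0.42 for the temperature list.

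Markers of cell types moved with the groups beside the clock genes. In bulk tissue fewer cells of a type and less RNA per cell cannot be told apart. Of 15 proximal tubule markers 10 fell in M and 11 in AA relative to C, with summed levels of 3218 to 13428 FPKM in C, 102 to 557 in M and 193 to 605 in AA. Of 11 markers of the distal nephron and collecting duct 4 and 5 fell, with sums of 132 to 526, 30.8 to 112 and 47.7 to 74.9. Of 10 macrophage markers 4 rose in M, and 5 rose and 1 fell in AA, with sums of 29.3 to 275, 250.2 to 526 and 172 to 263. Of 8 fibroblast markers 1 and 6 rose, with sums of 66.9 to 150.4, 133 to 444 and 282 to 484. Their part in the clock gene results was not tested. In M4 and M5, where Per1, Per2 and Tef were above every AA kidney, Slc34a1 was too, at 10.9 and 16.9 FPKM against at most 4.59 in AA. Hnf4a and Acsm2 of the same list went the other way, with every M kidney below every AA kidney. Over all 5 M kidneys 13 of the 15 proximal tubule markers had a positive log2 fold change in AA vs. M and 2 a negative one. Hnf4a (1.79, adjusted p = 0.0195) and Acsm2 (1.05, 0.0343) were called higher and 0 lower, beside 12.8% of all genes called. Of the other lists, 0 distal markers, 1 macrophage marker (lower) and 1 fibroblast marker (higher) were called there. Of 6 injured tubule markers 2 were called higher in AA than in M, Havcr1 (1.87, adjusted p = 0.0256) and Sox9 (1.29, 0.0458). Also called higher were 2 of 6 tested lymphocyte markers and 1 of 5 podocyte markers. Endothelial, neutrophil and erythroid lists had 0 called.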

How the data were processed

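Poly-A RNA of 15 kidneys, 5 per group, was sequenced in paired ends. Per the labels and methods, the authors trimmed reads, aligned them with HISAT2 2.0.5 and counted genes with featureCounts 1.5.0-p3; the submitters' processing notes also name fastp and mm10. The authors deposited FPKM values, in which mitochondrial genes are part of the library total. The authors' own counts were not used here, and reads recovered from the FPKM values served for limma voom and for the read numbers. Genes were matched to GENCODE M21 (GRCm38), which lacked 37 of the 54532.

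limma 3.58.1 in R 4.3.3 (lmFit, eBayes with an intensity trend) was run on log2(FPKM + 1), a scale that understates changes of low genes, separately for M and AA against C and for AA against M, with the 10 libraries of each comparison and genes above 0 in at least 5. p-values were adjusted by Benjamini-Hochberg over all genes tested. A gene was called where the adjusted p did not exceed 0.05 and the groups differed by 1 or more on the log2 scale. Samples were single mice, and the comparisons share groups. The fit was tested on simulated data, drawn from the means and spreads of these libraries. Of 200 genes given a log2 change of 2, 53% were called in M vs. C, 61.5% in AA vs. M and 77% in AA vs. C. A gene that was not called may thus still differ.

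Reads were recovered from the FPKM steps and gene lengths. Of low values, under 10 reads, 97.6% to 99.3% per library were whole within 0.02, and since most were even, a pair usually counts as 2 reads. No libraries were duplicates, with chi-square values per degree of freedom from 18.2 to 161.

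The members and lists were chosen with earlier results of these data known. Named were all members, other clock genes called in any comparison (or, where none was, the 3 with the largest difference), up to 4 called genes of each further list, and the 3 genes most like Arntl and Dbp. Some results of these rules are not reported here. Alternatives were pseudocounts of 0.1 and 0.01, other filters, TPM, quantile normalization, centring on library medians, leaving out mitochondrial genes, all 15 libraries in a fit, quality weights, a replicate block, no trend, limma voom on the recovered reads, and each library left out in turn. The splits of the M group were added after the data were seen. Sequences were taken from RefSeq (GRCm38.p6). Python 3.11.15 with pandas 2.3.3, numpy 2.4.6 and matplotlib 3.10.9 was used.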

Additional observations from a re-analysis of the deposited data

Results flagged for a closer look

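Single kidneys stood far from the other 4 of their group for 6 values, by a gap to the nearest kidney above 0.71 of the group's range (Dixon's ratio at 95%). Chance flags about 1 in 20 such groups, and 33 groups were examined. C2 was the high kidney for 4 genes, with 9.65 FPKM of Per2, 3.92 of Per3, 23.6 of Dbp and 46.2 of Tef, and it also had the largest arm difference. AA1 was high for Arntl, at 1.93 FPKM, and AA5 for Dbp, at 2.57. The cause was not tested. Without C2 the log2 fold change of Per2 in AA vs. C was -0.98, and 3 members were then called in AA vs. C.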

How the results depend on the processing

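The calls of Tef, Dbp and Per1 in AA vs. C were kept in all 23 alternatives, and that of Per2 in 22. The call of Nr1d1 in M vs. C was kept in 8 of 23. The M group and the scaling moved most other results, and the cause was not tested. Low genes limit what can be read: 9 member values were at 0, and the median reads behind a member in AA were as few as 12, for Cry1.

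In M vs. C, members called numbered 0 with a pseudocount of 0.1 or 0.01, the looser filter (any library above 0), quantile normalization, mitochondrial genes left out, quality weights, the replicate block, no trend, or M4 and M5 only. They numbered 3 as TPM, 2 with all 15 libraries in a fit, 2 with voom and 5 with M1 to M3 only, and 0 to 2 with a library left out. Other clock genes called, 0 otherwise, numbered 3 as TPM, 2 with all 15 libraries, 2 with voom, 4 with M1 to M3 only, and 0 to 2 with a library left out. Over all genes tested, 1609 of 21153 were called as TPM and 1869 of 21144 with voom.

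In AA vs. M, members called, 0 otherwise, numbered 1 with quantile normalization (Per1), 4 with centring (Per1, Per2, Cry1, Dbp), 2 with mitochondrial genes left out (Per1, Cry1), 1 with all 15 libraries (Cry1), 2 with quality weights (Per1, Per2), 3 with M4 and M5 only, 3 with M1 to M3 only, and 0 to 2 with a library left out. Other clock genes called, 1 otherwise, numbered 2 with a pseudocount of 0.1, 0 as TPM, 4 with centring, 3 with mitochondrial genes left out, 0 with quality weights, 0 with the replicate block, 4 with M1 to M3 only, and 0 to 3 with a library left out. Over all 19798 genes tested, 2279 were called with quantile normalization, 2813 with centring and 422 as TPM. With mitochondrial genes left out 4100 of 19782 were called.

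In AA vs. C, members called numbered 4 in the main fit, 7 with mitochondrial genes left out and 3 to 5 with a library left out. The 4 were called in all 13 alternatives that kept every library. Beside them, Nr1d1 was called in 5 of these 13, voom among them, and Npas2 in 3. Other clock genes called, 1 otherwise, numbered 5 and 6 with pseudocounts of 0.1 and 0.01, 10 as TPM, 2 with centring, 11 with mitochondrial genes left out, 11 with voom, and 0 to 3 with a library left out. Over all 21898 genes tested, 6785 were called as TPM and 4407 with centring. With mitochondrial genes left out 9130 of 21882 were called, and with voom 8590 of 21888.

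Signs turned for small differences. In M vs. C, Arntl was -0.32 with a pseudocount of 0.01, -0.15 as TPM, -1.35 with voom and -0.029 without M2 (up to 0.22 with other libraries left out), Clock -0.58 as TPM, -0.79 with voom and -0.013 without M2 (up to 0.070), and Npas2 -0.32 with a pseudocount of 0.01, -0.15 as TPM, -1.07 with voom and -0.036 without M1 (up to 0.28). Per1 was 0.086 with mitochondrial genes left out and 0.35 with M4 and M5 only, where Per2 was 0.15. In AA vs. M, Arntl was -0.11 with quantile normalization and -0.27 with centring, Clock -0.075 and -0.24, Per2 0.16 with a pseudocount of 0.01, 0.21 with voom and 0.16 with M1 to M3 only, and Tef 0.19 with M1 to M3 only. In AA vs. C, Clock was -0.36 as TPM and -0.47 with voom, and Per3 -0.76 as TPM, -0.072 with centring, -0.84 with voom and -0.090 without AA1 (up to 0.27 with other libraries left out).

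The arm difference kept its sign in every alternative tried. The difference of its group means was -1.38 in M vs. C (-2.31 with a pseudocount of 0.01, and -1.60 to -1.07 with a library left out). It was -0.51 in AA vs. M (-1.30 with a pseudocount of 0.01, and -0.74 to -0.29 with a library left out). In AA vs. C it was -1.89 (-3.15 with a pseudocount of 0.1, -3.61 with 0.01, and -2.04 to -1.58 with a library left out). The size of the difference between AA and M depended on the M kidneys used. M1 to M3, at 0.35, -0.23 and 0.60, lay within the AA range of -0.38 to 0.61. M4 and M5, at 1.12 and 1.56, lay above every AA kidney.

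Over all genes, the share of calls that were higher was 19.6% in M vs. C (72.0% with mitochondrial genes left out, 1.93% as TPM), 91.6% in AA vs. M (43.1% with centring) and 51.6% in AA vs. C (85.8% with mitochondrial genes left out, 12.7% as TPM). The labels give no pairing of samples by mouse number. Correlations of deviations between same-numbered mice ran from -0.13 to 0.22, which cannot show whether samples were handled together by number. With the replicate block 0 members were called in M vs. C and in the comparison of AA with M, and 4 in that of AA with C.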
